A study of Mus musculus with 8 samples.

Results

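The 41 cell cycle and DNA replication genes described here were listed by name, 15 that act in S phase and 26 that act in mitosis, and were read from a table of raw counts for 55414 genes in sorted mouse Paneth cells (PCs). All 41 were found in the table by Ensembl identifier, and 37 of them were among the 10707 genes that held enough counts to be tested. The other 4 (Gins2, Ccnb1, Cenpa and Nusap1) did not pass the low-count filter. PCs sit in the crypts of the small intestine and secrete antimicrobial peptides. Bulk RNA-seq was done on PCs sorted by FACS from 8 C57BL/6J mice, with 1 library per mouse. In the water group 4 mice drank Milli-Q (ultrapure) water, and in the zinc group 4 mice drank water with 25 mM ZnSO4, both for 7 days. After that every mouse, controls included, received an injection of TNF (tumor necrosis factor, a cytokine of inflammation), and the cells were taken 3 h later, so no mouse without TNF enters these comparisons. The ages of the mice, the TNF dose and the batches of sorting and sequencing were not stated. The libraries are called water 1 to 4 and zinc 1 to 4 by their replicate numbers.

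PCs are post-mitotic: they differentiate from dividing crypt cells, leave the cell cycle and then live among the crypt base stem cells, which keep dividing. Before S phase, the Mcm2 to Mcm7 helicase is loaded on origins of replication by Cdc6 and Cdt1. During S phase, Pcna clamps the polymerases to DNA, and thymidylate synthase (Tyms), ribonucleotide reductase (Rrm1 and Rrm2) and thymidine kinase (Tk1) supply nucleotides. Cyclin A2 and the B cyclins with Cdk1 then drive entry into mitosis, Plk1 and the Aurora kinases build the spindle, Bub1 and Bub1b hold the checkpoint, and Cdc20 and Ube2c direct the destruction of the cyclins. Transcription of the S-phase genes is known to be driven by E2F factors. The mitosis genes are known to carry CCAAT boxes and the cell cycle homology region (CHR), through which the DREAM complex represses them in resting cells and B-Myb and FoxM1 activate them in dividing cells.

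These sequence features were looked for in the RefSeq promoters of the genes, since most of the genes varied together between the libraries. Promoters of 250 bases before to 50 bases after the start (GRCm38.p6 table) were matched by symbol for 35 of the 41 genes, and each listed promoter was found by exact match at 1 place in GRCm39. A gene with several listed starts counted once. Ccna2, Stmn1, Mcm4, Gins2, Aurkb and Tpx2 were not matched. Both strands were searched for E2F (TTTGGCGC or TTTCGCGC), CHR (TTTGAA) and CCAAT. For 5 of the genes, all with matches there, a stretch of 90 bases upstream of the start is shown 5′ to 3′ on the strand of the gene. Each stretch was chosen to lie outside annotated exons and to hold the most kinds of motif. The stretches chosen in this way for some other genes, among them Cdc20, Ccnb1 and Tyms, held no match and are not shown. Capitals mark the matches on either strand. The stretches lie in GRCm39 at chr10:69188788-69188877 (minus strand) for Cdk1, chr11:98915156-98915245 (minus strand) for Top2a, chr9:70328917-70329006 (minus strand) for Ccnb2, chr8:75835982-75836071 (plus strand) for Mcm5 and chr1:128287518-128287607 (minus strand) for Mcm6.
Cdk1: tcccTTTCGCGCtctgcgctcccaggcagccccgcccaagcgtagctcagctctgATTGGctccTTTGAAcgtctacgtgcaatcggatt
Top2a: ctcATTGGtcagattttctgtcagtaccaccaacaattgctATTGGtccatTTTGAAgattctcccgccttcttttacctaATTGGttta
Ccnb2: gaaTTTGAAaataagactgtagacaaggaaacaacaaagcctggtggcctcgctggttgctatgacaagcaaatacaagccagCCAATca
Mcm5: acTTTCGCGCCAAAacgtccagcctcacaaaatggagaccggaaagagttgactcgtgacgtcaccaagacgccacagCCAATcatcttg
Mcm6: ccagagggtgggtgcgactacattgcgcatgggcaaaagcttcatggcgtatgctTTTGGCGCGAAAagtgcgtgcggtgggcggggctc

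In the stretch of Cdk1, the kinase of mitotic entry, matches to all 3 motifs were found. Top2a (DNA topoisomerase II alpha) and Ccnb2 (cyclin B2) held CHR and CCAAT, Mcm5 held E2F and CCAAT, and Mcm6 held E2F. In Mcm5 and Mcm6 the E2F matches on the plus and the minus strand overlap each other. Over the whole window, CHR was present in 17 of 22 mitosis genes and 1 of 13 S-phase genes. CCAAT was present in 20 of the 22 mitosis genes and 8 of the 13 S-phase genes. E2F was present in 5 of the 13 S-phase genes and 1 of the 22 mitosis genes. Among all 27025 genes of the RefSeq table, 20.2% held CHR, 41.1% CCAAT and 0.929% E2F, against 51.4%, 80.0% and 17.1% of the 35 genes. CHR and CCAAT occurred in the same promoter in 18 of the 35 genes (51.4%) and in 7.97% of all genes. With the 50 bases after the start left out, CHR was found in 28.6% of the 35 genes and 18.3% of all genes. It was then present in 9 of the 22 mitosis genes and 1 of the 13 S-phase genes. CHR and CCAAT then occurred in the same promoter in 10 of the 35 genes (28.6%) and in 6.45% of all genes. E2F was found in 8.57% (2 of the 13 S-phase genes and 1 of the 22 mitosis genes) and 0.759%. CCAAT was found in 80.0% and 37.5%. These matches describe letters in a window, and no binding was measured.

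The cell cycle genes were detected at low levels. Levels of different genes are compared as CPM (counts relative to the scaled size of their library) per kb of the canonical transcript, as the mean over the 8 libraries. On this scale the 41 genes ran from 0.0922 for Cenpf, a kinetochore protein, to 12.3 for Pcna, with a median of 0.997. The median of the 10365 tested protein-coding genes was 3.71, and 3 of the 41 genes (Pcna, Mcm2 at 4.41 and Mcm6 at 4.08) were above it. Lowest after Cenpf was Gins2 (0.148), a subunit of the replicative helicase. For comparison, the PC products Lyz1 (lysozyme) and Defa24 (an alpha-defensin) were at 123800 and 424500, and the stem cell markers Lgr5 and Olfm4 at 3.64 and 111. Together the 41 genes held between 0.0109% and 0.0306% of the counts of a library. Total counts per gene over the 8 libraries ran from 62 (Gins2) to 1870 (Pcna) with a median of 238, so counting error is large for the lowest genes. The only count of 0 was that of Bub1 in zinc 4, which allows a level of up to 0.242 CPM (3 counts). In bulk samples, fewer cells of a type and less RNA per cell cannot be told apart.

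**Figure D1:**
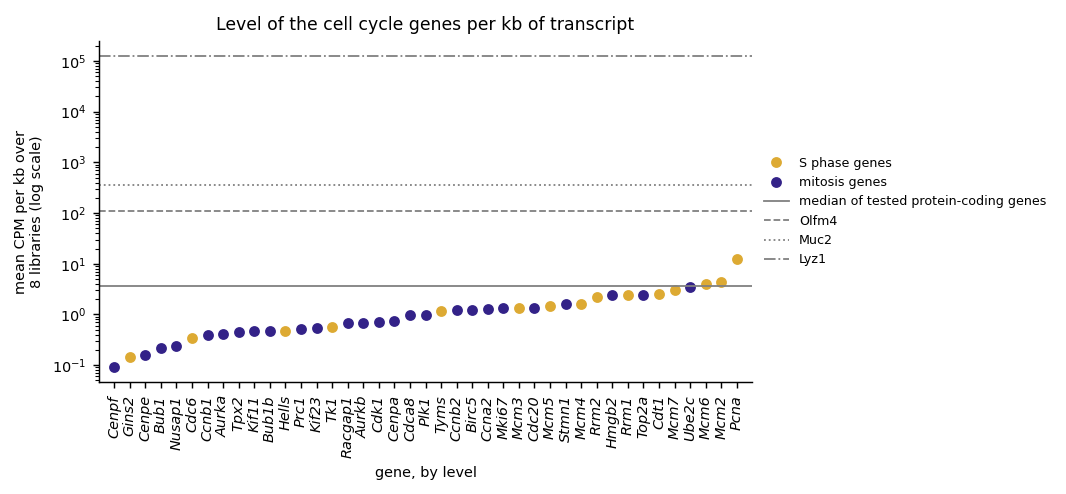
Mean CPM per kb of transcript over 8 libraries (log axis) for each of the 41 genes, coloured by S phase or mitosis, with lines for the median of the tested protein-coding genes and for Olfm4, Muc2 and Lyz1. Pcna, Mcm2 and Mcm6 are above the median line of 3.71, and every gene lies below the Olfm4 line at 111.

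Library totals were 10623658 to 15101627 counts. Zinc 3 stood apart, with correlations of 0.847 to 0.903 with the other libraries, and its TNF targets were low: Nfkbia, the inhibitor of NF-kB that TNF induces, was at 28.5 CPM in zinc 3 and at 433 to 533 CPM in the others. In water 3 and water 4, counts fell with transcript length relative to the other libraries (Spearman rho -0.334 and -0.341 across genes, against 0.000523 to 0.254). Nothing in the labels gives a batch that holds these libraries. Results are therefore given with and without zinc 3, and for water 3 and 4 where it matters.

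Zinc 4 is set apart from zinc 1 to 3 below because these genes were low in it, so this split was taken from the values it describes. In zinc 1, zinc 2 and zinc 3, 30 of the 41 cell cycle genes (73.2%) were above all 4 water libraries, where 8.88% of all tested genes were. With zinc 4 included, this held for 1 of the 41 (2.44%), where it held for 2.76% of all tested genes. In zinc 4, 21 of the 41 were within the range of the water libraries, 18 (43.9%) below it and 2 above it, and 21.2% of all tested genes were below it. The summed level of the 41 genes was 114 CPM in zinc 4, 122 to 153 CPM in the water libraries and 263 to 283 CPM in zinc 1 to 3. Of the 37 genes tested, 36 had a fitted log2 fold change (zinc over water) above 0, with a median of 1.00. Over all 10707 genes, 50.8% were above 0 and the median was 0.0062. None of the 37 passed an adjusted p of 0.05 by edgeR (quasi-likelihood F-test, smallest adjusted p 0.485), and 0.0% of all genes did. At an unadjusted p under 0.05, 20 of the 37 genes were higher and 0 lower, where 6.42% of all genes were higher and 3.78% lower. DESeq2 called 0 of the 41 genes and 0.0427% of all genes, and 21 of the 41 were higher at an unadjusted p under 0.05, where 4.34% of all genes were. By limma-voom with sample weights 0 of 37 were called and 23 were higher at such a p, where 6.49% of all genes were. After adjustment over all genes tested, a difference between the groups was thus called for none of the cell cycle genes. Zinc 4 made a large part of the spread between the mice of the zinc group. The groups did not overlap for 1 of the 41 genes (Cdt1), where 2.76% of all tested genes were higher in every zinc library.

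**Figure D2:**
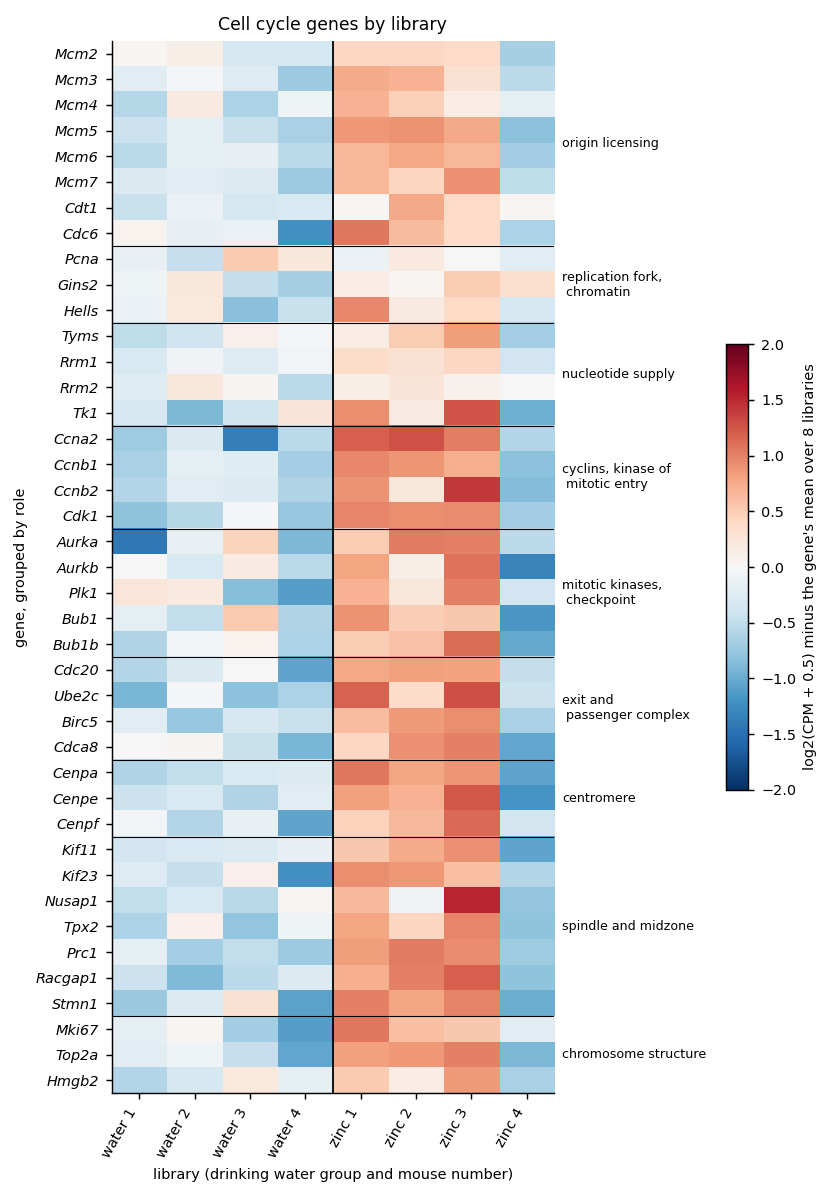
Heat map of log2(CPM + 0.5) minus each gene's mean over the 8 libraries, for 41 genes in rows grouped by role and 8 libraries in columns. Zinc 1 to 3 are red in most rows, while zinc 4 is mostly blue like the water libraries, and zinc 4 is the lowest zinc library for 39 of the 41 genes.

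Among the 8 genes of origin licensing, all had a fitted value above 0 (median 0.77), and 6 had an unadjusted p under 0.05. Of all genes tested, 6.42% were higher at that p, and the counts of the roles below stand against the same share. Mcm5, a subunit of the helicase, was at 4.37, 5.29, 4.30 and 3.67 CPM in water 1 to 4 and at 11.5, 11.7, 10.7 and 3.22 CPM in zinc 1 to 4. Zinc 1 to 3 were more than double any water library, and zinc 4 was the lowest of the 8. The log2 fold change of Mcm5 was 1.07 (SE 0.35, unadjusted p 0.0126). Mcm6, another subunit, was at 7.51, 9.76, 9.96 and 7.59 CPM with water and at 18.1, 19.3, 18.01 and 6.69 CPM with zinc (log2 fold change 0.84, SE 0.30). It had the same order, with zinc 4 below every other library. Mcm2 was at 14.8, 15.6, 11.2 and 11.2 CPM with water and 19.3, 19.2, 18.9 and 8.86 CPM with zinc (log2 fold change 0.32, SE 0.25, p 0.215). Here zinc 1 to 3 were nearly equal and only a little above water 2. Cdt1, the licensing factor that geminin holds in check, was at 3.76, 4.88, 4.06 and 4.23 CPM with water and 5.43, 9.38, 7.08 and 5.48 CPM with zinc, so that the lowest zinc library was above the highest water library. Its log2 fold change was 0.69 (SE 0.23, p 0.0126). Of the remaining genes of this role, Mcm3, Mcm4, Mcm7 and Cdc6 had log2 fold changes of 0.71, 0.58, 0.88 and 1.00.

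Pcna was the exception among the S-phase genes. This sliding clamp was at 16.4, 13.1, 26.4 and 21.5 CPM in water 1 to 4 and at 16.8, 20.9, 18.3 and 15.7 CPM in zinc 1 to 4. Its highest library was water 3, the groups overlapped, and the log2 fold change was -0.10 (SE 0.21, p 0.637). The sign of this value turned with the library set: it was 0.27 without water 3 and water 4, and 0.08 with an offset for transcript length and GC content. Pcna also serves DNA repair, and it was the gene with the highest level per kb. Pcna-ps1 and Pcna-ps2, annotated copies of the gene, held 14 counts in all against 1870 for Pcna. The untested Gins2, with 62 counts, was at 0.478, 0.714, 0.246 and 0.160 CPM with water and 0.655, 0.573, 0.981 and 0.805 CPM with zinc and had a log2 fold change of 0.84 (SE 0.65, p 0.214) with no low-count filter. Hells, a chromatin remodeller, was at 0.69 (SE 0.37, p 0.0937).

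Of the 4 genes of nucleotide supply, all had a fitted value above 0 (median 0.48) and 0 had an unadjusted p under 0.05. Rrm2, the regulated subunit of ribonucleotide reductase, was at 4.78, 6.84, 6.02 and 3.83 CPM with water and at 6.37, 7.02, 6.17 and 5.80 CPM with zinc. These ranges overlapped, and zinc 4 was close to the other zinc libraries (log2 fold change 0.24, SE 0.22, p 0.296). Rrm1, the other subunit, had 0.39 (SE 0.20). Tyms was at 2.32, 2.56, 3.81 and 3.43 CPM with water and 3.93, 5.23, 6.66 and 2.01 CPM with zinc (log2 fold change 0.57, SE 0.36, p 0.136). Zinc 3 was highest and zinc 4 lowest of all libraries. Tk1 was at 0.410, 0.119, 0.369 and 0.878 CPM with water and 1.69, 0.788, 2.24 and 0.0805 CPM with zinc, with 84 counts over all libraries (log2 fold change 1.44, SE 0.80, p 0.0990). Tk1 overlaps genes on the opposite strand that held 26550 counts. In 9 of the 41 genes (Mcm7, Gins2, Tk1, Ccna2, Cdk1, Aurka, Plk1, Cdc20 and Cdca8) overlapping genes on the opposite strand held more counts than the gene itself, from 264 to 26550. No source states how strand entered the counting, so the values of these 9 genes are uncertain.

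Of the cyclins and the kinase of mitotic entry, 3 were tested and all 3 had an unadjusted p under 0.05 (median 1.44). Ccna2 had the largest fitted value of the 37 tested genes with all 8 libraries. Ccna2 (cyclin A2; ENSMUSG00000027715, GRCm39 chr3:36619014-36626299, minus strand) was at 1.64, 2.38, 0.861 and 1.92 CPM in water 1 to 4 and at 7.58, 8.02, 6.66 and 1.85 CPM in zinc 1 to 4. Zinc 4 was inside the water range and the other zinc libraries were far above it. The log2 fold change was 1.79 (SE 0.45), and its unadjusted p of 0.00241 was the smallest of the 41 genes (adjusted p 0.485, edgeR). Cdk1 (ENSMUSG00000019942, chr10:69170976-69236595, minus strand) was at 1.30, 1.61, 2.58 and 1.36 CPM with water and 5.71, 5.52, 5.54 and 1.45 CPM with zinc (log2 fold change 1.44, SE 0.43, p 0.00726). Zinc 1 to 3 were nearly equal, and zinc 4 was at the level of water 4. Ccnb1 (cyclin B1), with 101 counts, was at 0.342, 0.654, 0.615 and 0.320 CPM with water and 2.06, 1.93, 1.68 and 0.242 CPM with zinc. It was not among the genes tested, and with no low-count filter its log2 fold change was 1.59 (SE 0.62, p 0.0180). Ccnb2 was at 1.35 (SE 0.54, p 0.0295). Summed over these 4 genes, the level was 4.17 to 5.95 CPM in the water libraries and 18.7, 17.4, 18.9 and 4.19 CPM in zinc 1 to 4.

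The 5 mitotic kinases and checkpoint genes all had fitted values above 0 (median 0.92), but 0 of 5 had an unadjusted p under 0.05. Plk1 (Polo-like kinase 1) was at 2.39, 2.26, 0.861 and 0.639 CPM with water and 3.46, 2.36, 4.42 and 1.37 CPM with zinc. Water 1 was above both zinc 2 and zinc 4, so the groups overlapped widely (log2 fold change 0.88, SE 0.49, p 0.105). Aurkb, the kinase of the chromosomal passenger complex, was at 1.16, 0.833, 1.35 and 0.639 CPM with water and 2.34, 1.29, 3.01 and 0.161 CPM with zinc (log2 fold change 0.79, SE 0.64, p 0.244). Zinc 4 held 2 counts of Aurkb and was the lowest library. Aurka, Bub1 and Bub1b had log2 fold changes of 1.47, 0.92 and 1.00.

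Of the 4 genes of mitotic exit and the passenger complex, 3 had an unadjusted p under 0.05 (median 1.35). Ube2c, the ubiquitin-conjugating enzyme of the anaphase-promoting complex, was at 1.23, 2.68, 1.35 and 1.60 CPM with water and 6.93, 3.73, 7.50 and 1.93 CPM with zinc (log2 fold change 1.52, SE 0.44, p 0.00593). Zinc 2 stood between zinc 1 and the water libraries. Cdc20, the activator of the same complex, was at 1.30, 1.73, 2.21 and 0.799 CPM with water and 4.12, 4.30, 4.21 and 1.45 CPM with zinc (log2 fold change 1.24, SE 0.42, p 0.0139). Here zinc 1 to 3 were nearly equal and zinc 4 was inside the water range. Birc5 (survivin) and Cdca8 (borealin), both of the passenger complex, had log2 fold changes of 1.45 and 1.03. At the centromere, Cenpe and Cenpf were at 1.46 and 1.54, and Cenpf was at 0.820, 0.416, 0.738 and 0.160 CPM with water and 1.40, 1.65, 2.52 and 0.564 CPM with zinc. Cenpa, the histone variant of the centromere, had 109 counts and a log2 fold change of 1.57 (p 0.0203) with no low-count filter.

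Among the spindle and midzone genes, 4 of 6 tested had an unadjusted p under 0.05 (median 1.24). Prc1, which bundles the microtubules of the midzone, had 1.64 (SE 0.51, p 0.00880), and Racgap1, its partner in cytokinesis, 1.58 (SE 0.50, p 0.0100). Stmn1 (stathmin, which destabilises microtubules) was at 1.23, 1.90, 3.07 and 0.878 CPM with water and 5.33, 4.51, 5.26 and 0.967 CPM with zinc (log2 fold change 1.21, SE 0.53, p 0.0437). Water 3 was the highest water library here and zinc 4 was next to the lowest. The motor proteins Kif11 and Kif23 and the spindle factor Tpx2 had log2 fold changes of 0.91, 1.26 and 0.99, and Nusap1, untested with 102 counts, had 1.37 with no low-count filter.

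The 3 genes of chromosome structure had the highest counts among the mitosis genes. Mki67 (ENSMUSG00000031004, GRCm39 chr7:135291513-135318299, minus strand), the source of the Ki-67 proliferation antigen, was at 10.7, 12.7, 7.38 and 5.43 CPM in water 1 to 4 and at 25.9, 18.8, 18.1 and 10.4 CPM in zinc 1 to 4. Zinc 4 was just below water 1, and zinc 1 was the highest library by far. The log2 fold change of Mki67 was 1.01 (SE 0.31, p 0.00823). Top2a (ENSMUSG00000020914, chr11:98883769-98915062, minus strand), which untangles sister chromatids, was at 9.49, 10.5, 7.99 and 5.19 CPM with water and 20.1, 20.9, 23.1 and 5.80 CPM with zinc (log2 fold change 1.07, SE 0.38, p 0.0174). Zinc 1 to 3 were about double the highest water library, and only water 4 was below zinc 4. Hmgb2, a chromatin protein of dividing cells, was at 4.44, 5.47, 8.11 and 6.07 CPM with water and 10.2, 7.74, 12.97 and 4.27 CPM with zinc. Its groups overlapped, since water 3 was above zinc 2 (log2 fold change 0.56, SE 0.32, p 0.111).

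**Figure D3:**
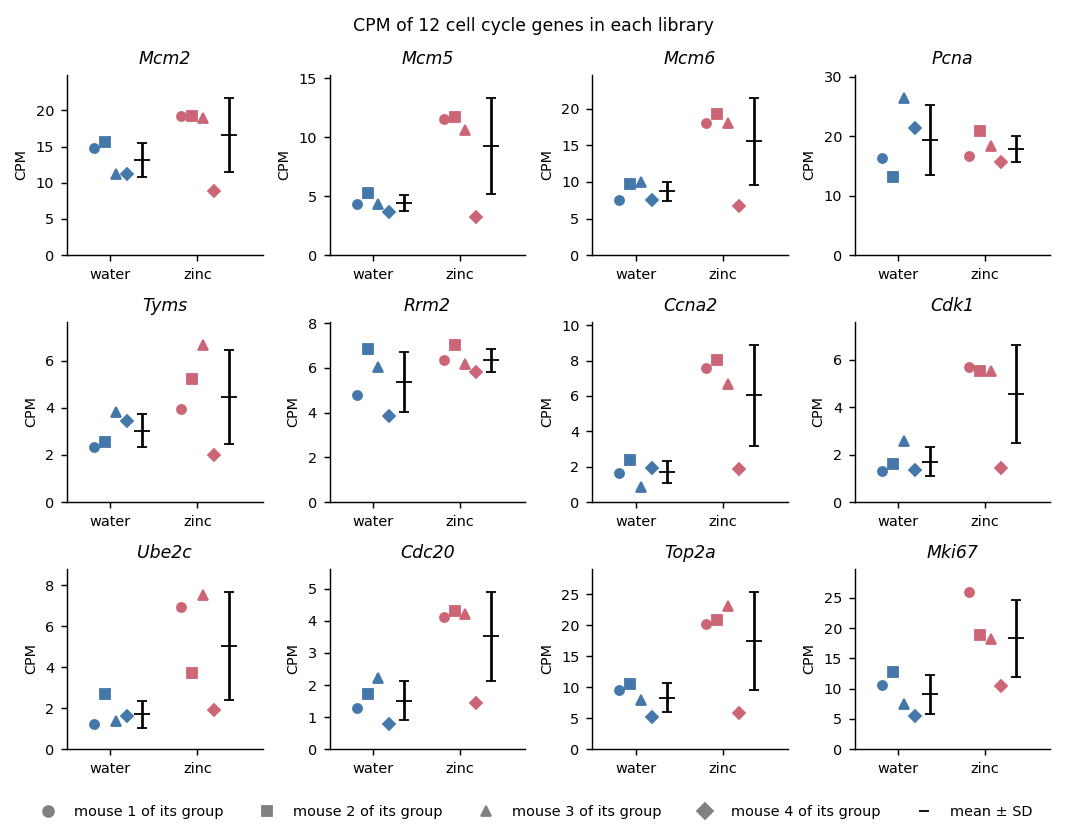
CPM of 12 of the genes in each library, with 1 symbol per mouse and the mean ± SD of each group (n = 4). Zinc 4 (red diamond) is the lowest zinc library in all 12 panels, and in Pcna and Rrm2 it lies close to the other zinc libraries.

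The summed levels show the same order. The 15 S-phase genes together were at 85.4, 96.9, 95.6 and 85.5 CPM in water 1 to 4 and at 146, 148, 143 and 77.0 CPM in zinc 1 to 4. The 26 mitosis genes were at 47.5, 56.2, 51.5 and 36.1 CPM with water and at 129, 115, 140 and 37.2 CPM with zinc. Zinc 1 to 3 were above every water library in both sums, and zinc 4 was lowest for S phase and second lowest for mitosis. The group means were 90.9 ± 6.25 and 129 ± 34.4 CPM for S phase, a ratio of 1.41, and 47.8 ± 8.60 and 105 ± 46.5 CPM for mitosis, a ratio of 2.20 (SD, n = 4 each). Without zinc 3 the ratios were 1.36 and 1.96. With Pcna and Mcm2, the 2 genes of highest mean CPM, left out of the sum, the S-phase ratio was 1.61 (1.54 without zinc 3). The mitosis sum divided by the S-phase sum was 0.422 to 0.581 in the water libraries and 0.887, 0.779, 0.974 and 0.483 in zinc 1 to 4. In zinc 1 to 3 the mitosis genes thus stood higher relative to the S-phase genes than in any water library.

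**Figure D4:**
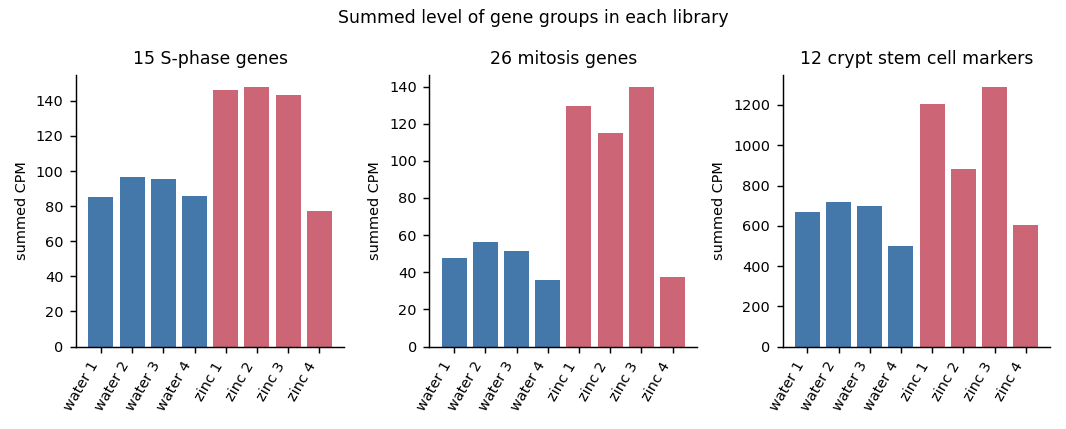
Bars give the summed CPM of 15 S-phase genes, 26 mitosis genes and 12 crypt stem cell markers in each of the 8 libraries (blue, water; red, zinc). In all 3 panels zinc 1 to 3 are above every water library, and zinc 4, at 77.0, 37.2 and 603 CPM, is not; in the stem cell panel zinc 2 is above them only with Olfm4 in the sum (468 CPM without it, against 359 to 498 CPM with water).

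Which libraries entered the fit changed how many genes had a small p. Without zinc 3, 36 of the genes were tested, 35 had a fitted value above 0, the median was 0.81, and 16 had an unadjusted p under 0.05 (4.34% of all genes were higher at that p). Without zinc 3, Ccna2, Cdk1 and Mki67 were at 1.73, 1.34 and 1.01 (unadjusted p 0.00205, 0.00928 and 0.00569), and Aurkb went from 0.79 to 0.35. Without zinc 4, 40 genes were tested and 38 had an unadjusted p under 0.05 (11.0% of all genes were higher at that p), with a median of 1.34. All 26 mitosis genes were among the 38. Of these, Ccnb1, Cenpa and Nusap1 did not pass the low-count filter with all 8 libraries. They passed it here, where most of their counts lay in zinc 1 to 3, so their small p rests on the libraries that let them pass. The adjusted p still did not pass 0.05 for any gene (smallest 0.0704, edgeR). With the low-count filter off, all 41 genes were tested, 40 had a fitted value above 0 and 24 an unadjusted p under 0.05 (5.81% of all genes were higher at that p). The 2 genes without a small p when zinc 4 was left out were Pcna and Rrm2. Without water 3 and water 4, 4 of 41 genes had a small p (1.69% of all genes were higher at that p) and the median was 0.93. With zinc 3 left out as well, 3 genes had a small p (2.39% of all genes). The count was 13 without water 4 (3.81% of all genes) and 13 without zinc 2 (6.7% of all genes). With the replicate number as a block it was 19 (4.42% of all genes), and 17 with that block and without zinc 3 (3.31% of all genes). With an offset for transcript length and GC content, 37 of 37 fitted values were above 0, the median was 1.00 and 20 had a small p (5.55% of all genes were higher at that p).

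**Figure D5:**
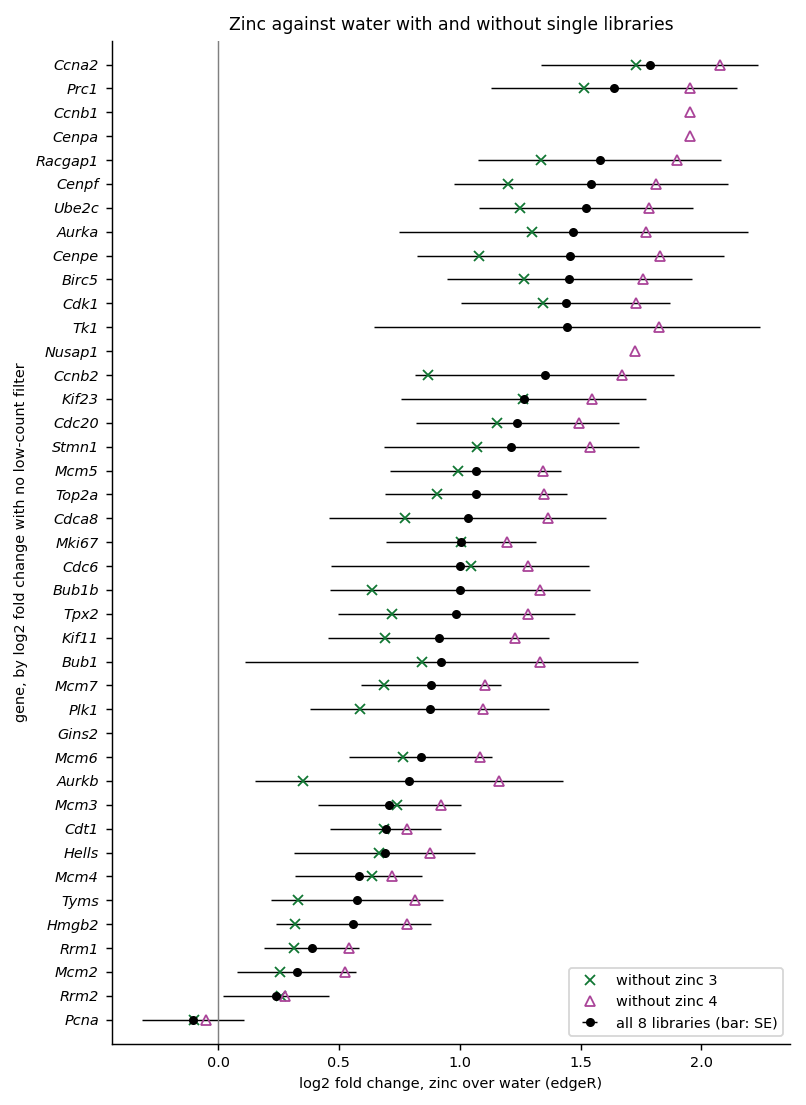
Fitted log2 fold change (zinc over water) of each gene with all 8 libraries (black, bar = SE), without zinc 3 (green crosses) and without zinc 4 (open triangles), where the gene was tested in that fit. All genes but Pcna lie to the right of 0, and each triangle lies to the right of the black point of its gene where both are drawn.

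The genes varied together between mice, and this rested on which zinc library was taken. Zinc 4 was the lowest zinc library for 39 of the 41 genes and for all 26 mitosis genes, and for 28.7% of all tested genes. The exceptions were Cdt1, lowest in zinc 1, and Gins2, lowest in zinc 2. Zinc 3 was the highest of all 8 libraries for 20 genes (48.8%), zinc 1 for 12 (29.3%), zinc 2 for 8 (19.5%) and water 3 for 1 (Pcna, 2.44%). Of all tested genes, 29.8% were highest in zinc 3, 8.63% in zinc 1, 6.01% in zinc 2 and 18.6% in water 3. With zinc 4 left out the groups did not overlap for 30 of the 41 genes, 9 of S phase and 21 of mitosis, where 8.88% of all tested genes were higher without overlap. Leaving out any other library left 1 to 3 such genes, where 3.75% to 5.55% of all tested genes were higher without overlap. Within the water group no library was lowest for as many genes as zinc 4 was in its group. Water 4 was still the lowest water library for 21 of the 41 genes and 14 of the 26 mitosis genes. For all tested genes this was so in 2767 of 10707. The highest of the 4 was water 1 for 5 genes, water 2 for 17, water 3 for 12 and water 4 for 7. Among the 10707 tested genes these counts were 2483, 2680, 3311 and 2233. Since the libraries fell into separate high and low ranges, no correlation between genes across the 8 mice is given.

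Other genes of the same pathway, fixed as lists beside the 41, mostly had fitted values in the same direction. Of 46 further replication genes, 41 were tested, and 37 had a fitted value above 0 (median 0.62). An unadjusted p under 0.05 was found for 10, all higher (6.42% of all genes were higher at that p). Without zinc 3, 33 of 41 were above 0, the median was 0.33 and 7 had a small p (4.34% of all genes). Dnmt1, the maintenance DNA methyltransferase, had 0.65 (SE 0.20, p 0.00704). Fen1, which trims Okazaki fragments, was at 43.9, 45.3, 51.6 and 43.9 CPM with water and 32.95, 44.2, 12.8 and 53.97 CPM with zinc, so zinc 3 was its lowest library and zinc 4 its highest. Rpa3, a subunit of the single-strand binding complex, had -0.33 (p 0.496). Of 54 further mitosis genes, 31 were tested, and 28 had a fitted value above 0 (median 0.68). An unadjusted p under 0.05 was found for 10, all higher (6.42% of all genes were higher at that p). Without zinc 3, 26 of 31 were above 0, the median was 0.59 and 5 had a small p (4.34% of all genes). Cdc25b, the phosphatase that activates Cdk1, was at 0.751, 1.07, 0.861 and 0.320 CPM with water and 2.34, 1.93, 7.15 and 2.01 CPM with zinc. Zinc 4 was above every water library here (log2 fold change 2.15, SE 0.54, p 0.00242). Espl1 (separase) had 1.87 (p 0.0103), and Kif2c and Cks1b had -0.52 and -0.25. None of these genes passed an adjusted p of 0.05 by edgeR.

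The fitted values of the regulators of G1 and of cell cycle exit had no common direction. Of 32 such genes, 27 were tested, 14 with a fitted value above 0 and 13 below (median 0.07). At an unadjusted p under 0.05, 4 were higher and 2 lower, where 6.42% and 3.78% of all genes were. Without zinc 3 these were 2 and 1, where 467 and 400 of 10755 genes were. The mean log2(CPM + 0.5) of the 32 was 2.90 to 3.01 with water and 3.06, 3.15, 3.295 and 2.83 in zinc 1 to 4. Zinc 1 to 3 were above every water library in this mean, and zinc 4 was lowest. The summed CPM did not have this order (666.5 to 680.7 with water and 649.2, 680.5, 665.3 and 641.7 with zinc). Cdk6, a kinase of G1, was at 3.83, 5.29, 3.44 and 3.67 CPM with water and 9.73, 7.95, 16.5 and 5.96 CPM with zinc (log2 fold change 1.30, SE 0.31, p 0.00176). Its zinc libraries were all above its water libraries. E2f8, an E2F of the repressive kind, had 1.43 (p 0.0184), and the D cyclins Ccnd1 and Ccnd2 had 0.72 and 0.81 (p 0.0443 and 0.0237). Ccng2, a cyclin of resting cells, and Mdm2, the ligase of p53, were at -0.82 and -0.43 (p 0.0266 and 0.0431). The Cdk inhibitor Cdkn1a (p21) was at 47.2, 53.7, 61.1 and 45.2 CPM with water and 45.5, 38.1, 70.5 and 49.3 CPM with zinc (log2 fold change -0.03, SE 0.20). Cdkn1a thus showed no gap between zinc 4 and the other zinc libraries of the kind seen in the cell cycle genes. The inhibitor Cdkn1b had a log2 fold change of -0.02. Cdkn2a had 0 counts in all libraries, which allows up to 0.369 CPM in water 3, the library with the smallest scaled size.

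Markers of dividing crypt cells were measured in the same libraries. The 12 crypt stem cell markers summed to 501 to 716 CPM with water and to 1206, 880, 1287 and 603 CPM in zinc 1 to 4. In this sum zinc 1 to 3 were above every water library, but for zinc 2 this rested on Olfm4. Without it (left out after seeing the data) the other 11 summed to 484, 498, 393 and 359 CPM with water. With zinc they summed to 568, 468, 806 and 491 CPM, so that zinc 2 was below water 1, water 2 and zinc 4. A sum is weighted by the most abundant markers. The mean log2(CPM + 0.5) of all 12 (Olfm4 included) was 3.63 to 4.04 with water and 4.86, 4.44, 5.47 and 3.79 in zinc 1 to 4. Of the 12 markers, 11 were tested and all 11 had a fitted value above 0 (median 0.96). An unadjusted p under 0.05 was found for 5 (6.42% of all genes were higher at that p). Without zinc 3, 10 of 11 were above 0, the median was 0.62 and 4 had a small p (4.34% of all genes). Ascl2, a transcription factor of the stem cells, was at 0, 0.0595, 0 and 0.240 CPM with water and 3.09, 1.79, 4.21 and 0 CPM with zinc. It was at or below the value of 3 counts in every water library and in zinc 4, and above it in zinc 1 to 3. Lgr5, the receptor that marks these cells, was at 9.63, 13.03, 7.01 and 7.19 CPM with water and 22.6, 17.1, 52.3 and 8.54 CPM with zinc, and Olfm4 at 182, 218, 305 and 142 and 638, 412, 482 and 113 CPM. Zinc 1 to 3 were above every water library in both, and zinc 4 was inside or below the water range. Axin2 and Rgmb had log2 fold changes of 1.94 and 1.41 (p 0.00469 and 0.0109), and 1.24 and 0.62 without zinc 3. No marker of the 12 was at 0 in all libraries. The part of these markers in the levels of the cell cycle genes was not tested.

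The 12 enterocyte markers summed to 43.8 to 78.1 CPM with water and to 90.3, 61.0, 244 and 27.1 CPM in zinc 1 to 4, so zinc 4 was lowest and zinc 3 highest. Of them 8 were tested, all with fitted values above 0. An unadjusted p under 0.05 was found for 1 (Apob, 1.57), where 6.42% of all genes were higher at that p (Sis, 2.30, p 0.0534). Without zinc 3, 4 of the 8 were above 0, the median went from 0.91 to 0.13, and the ratio of the summed levels (zinc over water) from 1.82 to 1.03. Fabp1 was at 3.79 CPM in zinc 3 and at 0.958 CPM or less in the other libraries. The 12 goblet cell markers summed to 10840 to 15830 CPM with water and to 16100, 12660, 11430 and 15700 CPM with zinc. This sum did not have the order of the cell cycle genes. The mean log2(CPM + 0.5) of the 12 did, at 6.57 to 6.82 with water and 7.26, 7.15, 7.79 and 6.59 in zinc 1 to 4. Atoh1 and Zg16 were at log2 fold changes of 1.23 and 1.91, Spdef and Spink4 at -0.45 and -0.41, and Muc2, the main mucin, at 0.84. The median of the 11 tested goblet cell markers went from 0.84 to 0.0015 without zinc 3. The 10 enteroendocrine and tuft markers summed to 8.95 to 19.8 CPM with water and 5.43 to 14.0 CPM with zinc (log2 fold change of Dclk1 1.03, Trpm5 0.37 and Tac1 -2.002). The 15 immune and stromal markers summed to 13.8 to 26.1 CPM with water and 13.4 to 28.4 CPM with zinc, and 7 of them (among them Adgre1, Cd3g, Cdh5, Col1a1, Col3a1 and Hbb-bs) were at 0 in every library. Ptprc (CD45) was at 0.0716 CPM or less. The 11 PC markers summed to 395000 to 738700 CPM, with 3 of 11 fitted values above 0 (9 of 11 without water 3 and water 4), and were thus far above any other marker list in every library. The PC genes Pnliprp2 and Habp2 had log2 fold changes of 0.30 and 0.20, Mptx2 and Mmp7 of -0.83 and -0.45, and Lyz1 and Defa24 of -0.20 and -0.29. Mt1, a metallothionein that zinc induces, was at 40.98, 44.2, 68.1 and 35.9 CPM with water and 254, 106, 29.5 and 44.95 CPM with zinc, so that zinc 4 was within and zinc 3 below the water range, while only zinc 4 was low in the cell cycle genes. The label of zinc 4 was taken as given and no value here checks it, so every zinc-over-water value depends on it. Whether enterocyte RNA or the zinc intake of a mouse moves with the cell cycle genes beyond these values was not tested.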

How the data were processed

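The authors deposited 1 table of raw counts per Ensembl gene with 1 column per mouse. Per the labels, libraries were made from RNA of FACS-sorted PCs with a stranded mRNA kit, and the submitters' processing notes name FastQC 0.12.0, STAR 2.7.10a, DESeq2 and genome build mm39. The counter, its annotation and its use of strand are not given in the sources used here. Identifiers were matched to GENCODE M39 (54749 of 55414), from which symbols, GRCm39 coordinates and canonical transcript lengths were taken.

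The zinc and water groups were compared in edgeR 4.0.16 (R 4.3.3, quasi-likelihood F-test) on all 8 libraries, with TMM factors, the default expression filter (10707 genes, 99.89% of the counts, biological coefficient of variation 0.269) and Benjamini-Hochberg adjustment over all genes tested (threshold 0.05). CPM values are on TMM-scaled library sizes, on which 3 counts are worth 0.179 to 0.369 CPM. These limits cover counting error only. Sums over genes were not tested between groups. The steps were tested on simulated data of 4 against 4 libraries. Of the genes set to change, edgeR called 96.9% at a log2 fold change of 2 and 37.4% at 1. A gene not called here may thus still differ by that much. Unchanged genes made up 7 of 138 calls by edgeR, 6 of 132 by limma-voom, 28 of 177 by DESeq2 and 15 of 132 with the replicate block. No 2 libraries agreed within sampling noise (chi-square per degree of freedom at least 6.37 in 28 pairs), so each counted as 1 replicate. The labels name separate mice.

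Alternatives were other scaling factors, no filter, a stricter filter (1 CPM in 4 libraries and 100 counts), DESeq2 1.42.0, limma-voom 3.58.1 with sample weights, a block on the replicate number, each library left out, water 3 and 4 left out and a loess offset on length and GC content. Leaving out water 3, water 4 and zinc 3 together, leaving Olfm4 out of a sum, and counting genes at an unadjusted p under 0.05, were added after seeing the data. The same holds for setting zinc 4 apart from zinc 1 to 3. The genes and lists were chosen with earlier results of these data known. Named with values in every library were 17 genes listed by name (Mki67, Top2a, Pcna, Mcm2, Mcm5, Mcm6, Ccnb1, Ccna2, Cdk1, Plk1, Aurkb, Cdc20, Tyms, Rrm2, Tk1, Stmn1 and Hmgb2), the 3 with the smallest p higher and lower, and the 2 highest and 2 lowest per kb. From each further list, the higher and the lower 2 with the smallest p were named where any p was under 0.05, with defining markers. Cdt1, the D cyclins, the Cdk inhibitors, Mt1 and Nfkbia were named after their values were seen, and so were the log2 fold changes of the remaining genes. The values of 2 genes of the further lists are not reported here.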

Additional observations from a re-analysis of the deposited data

Results flagged for a closer look

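Zinc 4 lay far from the other zinc libraries in 6 of the named genes and in the 2 sums below, as judged by its gap to the nearest of the others divided by the range of the 4 zinc libraries. This was above Dixon's 95% critical value for 4 samples. Top2a was at 5.80 CPM in zinc 4 and at 20.1 to 23.1 CPM in the other zinc libraries, and Mcm2 at 8.86 against 18.9 to 19.3 CPM. For Mcm5 and Mcm6 the values were 3.22 against 10.7 to 11.7 CPM and 6.69 against 18.0 to 19.3 CPM. Cdk1 and Cdc20 were both at 1.45 CPM in zinc 4, against 5.52 to 5.71 CPM and 4.12 to 4.30 CPM. The summed level of all 41 genes was 114 CPM in zinc 4 and 263 to 283 CPM in the others, and that of the S-phase genes 77.0 against 143 to 148 CPM. Of 46 groups of 4 libraries searched, chance flags about 1 in 20, or 2.3 groups. The genes vary together, so these 8 are not independent of each other.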

How the results depend on the processing

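No alternative gave an adjusted p under 0.05 for any of the 41 genes, and in each the median log2 fold change of the tested members stayed above 0 (0.75 to 1.34). DESeq2 called 8 genes in all, 3 higher and 5 lower, none of the 41. The 20 genes with an unadjusted p under 0.05 became 4 without water 3 and 4 (1.69% of all genes were higher at that p), and 3 when zinc 3 was left out as well (2.39%), and ran from 13 to 38 when 1 library was left out (13 without water 4 or zinc 2, where 3.81% and 6.7% of all genes were higher, and 38 without zinc 4, where 11.0% were). The 38 include Ccnb1, Cenpa and Nusap1, which passed the low-count filter there but not with all 8 libraries. The replicate numbers did not pair the mice (correlations of same-numbered deviations -0.0275 to 0.0266), and with the replicate block 19 genes had a small p (4.42% of all genes) and the median was 0.92, or 17 (3.31% of all genes) and 0.76 with the replicate block and without zinc 3. Pcna turned to 0.28 without water 3, water 4 and zinc 3, 0.27 without water 3 and 4, 0.138 by limma-voom, 0.0908 with the block without zinc 3 and 0.0831 with the length and GC offset, and ran from -0.257 (without water 2) to 0.0755 (without water 3) with 1 library left out. Without water 3 and 4, Rpa3, Cks1b, Mmp7, Spink4, Lyz1 and Defa24 also changed sign, to 0.295, 0.0910, 0.0026, 0.0646, 0.0762 and 0.136. With zinc 3 left out too, Cks1b, Mmp7, Spink4, Trpm5, Lyz1 and Defa24 were at 0.199, 0.0392, 0.0910, -0.243, 0.102 and 0.135. Rpa3 was at 0.0044 with the offset, and Trpm5 at -0.569 with the block without zinc 3, with a range from -0.352 (without zinc 3) to 0.789 (without water 4) when 1 library was left out. The cause was not tested. The share of genes with CHR was 28.6%, and with E2F 8.57%, in the 250 bases before the start. Correlations of 10 gene pairs were planned and are not given, since the libraries fell into separate ranges. Low counts limit the mitosis genes most.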
